A study of Mus musculus with 6 samples.

Results

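Proteins made by target muscle and by the glia of nerves can promote the survival of motor neurons. The transcripts of 9 such ligands were followed here in embryonic mouse diaphragm with and without Schwann cells, the glia that ensheath peripheral axons. The ligands were taken by name, whatever their values, as the neurotrophins Bdnf, Ntf3 and Ntf5, the GDNF family members Gdnf, Nrtn and Artn, and the cytokines Cntf, Lif and Ctf1. All 9 were found among the 23073 genes with a value, by joining the Ensembl identifiers of the files to mouse symbols. The question put to them was which of these survival factors the muscle keeps transcribing when Schwann cells are missing.

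RNA-Seq had been performed on 6 libraries of diaphragm at E14.75, 2 in each of 3 groups. The wild-type libraries, labelled erbB3 WT with the replicate numbers 5 and 6, held total RNA of whole muscle with its Schwann cells. The mutant libraries, labelled erbB3 KO with the numbers 1 and 2, held total RNA of whole muscle of embryos without the erbB3 receptor, which the labels describe as lacking Schwann cells. The Wnt1-Ribotag libraries, with the numbers 1 and 2, were labelled Wnt1-Cre, Ribotag and erbB3 WT, and held RNA that had been pulled down with ribosomes through a hemagglutinin tag. In these animals Wnt1-Cre switches on the tagged ribosomal protein in cells derived from the neural crest, which include Schwann cells but also sensory and sympathetic neurons, and each library pooled diaphragms of a litter and was made from far less RNA than the whole-muscle libraries. Wnt1-Ribotag libraries differ from the mutant in genotype and in preparation at once, and from the wild-type in preparation and by both transgenic alleles, so in the comparison with the mutant the effects of genotype and preparation cannot be told apart. The labels call the 2 samples of a group biological replicates, and all p-values below measure the spread between these few samples only.

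Neurotrophins act through the Trk receptor kinases and the p75 receptor Ngfr. Ligands of the GDNF family bind a Gfra co-receptor on the cell surface and signal through the kinase Ret, each ligand with a preferred partner. CNTF, LIF and cardiotrophin-1 signal through Lifr and Il6st, and CNTF needs Cntfr in addition. Members of all 3 families keep motor neurons alive in culture or after nerve injury, and CNTF is known as an abundant product of mature myelinating Schwann cells.

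Genes without reads carry a small floor value in the files in place of 0, marked as such, and the unit is RPKM, reads normalized to the length of the gene and to the depth of sequencing, so that levels of different genes can be compared per length. From the floors, the depth was between 100178863 and 230216660 reads, and between 17205 and 20349 genes were above the floor. Pearson's r across genes between the log2 values of the 2 libraries of a group was 0.990 in wild-type, 0.986 in mutant and 0.931 in Wnt1-Ribotag libraries, and the median absolute difference on the log2 scale was 0.13, 0.19 and 0.39 in the same order. The Wnt1-Ribotag libraries thus stood farther apart from each other than those of the other groups. Erbb3, the targeted gene, was at 16.5 and 15.8 RPKM in wild-type, 21.5 and 11.9 in mutant and 19.5 and 25.3 in Wnt1-Ribotag libraries, so the transcript gives no check of the genotypes, which are named after the labels. Of a list of 11 Schwann cell markers, Sox10 and Cdh19 were below 0.1 RPKM in both mutant libraries. The 11 genes summed to between 27.4 and 28.4 RPKM in wild-type, 11.7 and 12.5 in mutant and 147 and 367 in Wnt1-Ribotag libraries. Markers of skeletal muscle, a list of 12 genes, summed to between 2357 and 4173 RPKM in whole muscle and to 2834 and 2440 RPKM in Wnt1-Ribotag libraries, so the ribosome-bound RNA held muscle transcripts at a level within the range of whole muscle.

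Every ligand was above the floor in every library, the mutant ones included. Cardiotrophin-1 (Ctf1) was the highest ligand in whole muscle, followed by the neurotrophins Ntf3 and Ntf5. Next came Cntf and Nrtn, while Artn, Bdnf, Gdnf and Lif lay below 0.5 RPKM in each whole-muscle library. In wild-type muscle the mean levels fell in the order Ctf1, Ntf3, Ntf5, Cntf, Nrtn, Artn, Bdnf, Gdnf, Lif, where the values of Ntf3 overlapped those of Ntf5, and those of Bdnf, Gdnf and Lif overlapped from each to the next. Mutant muscle kept the same first 5 in the same order, and below them came Bdnf, Lif, Gdnf and Artn, with overlapping values again for Ntf3 and Ntf5 and for Gdnf and Artn. Artn moved from position 6 to position 9. In Wnt1-Ribotag libraries the order was Ctf1, Cntf, Ntf3, Ntf5, Bdnf, Nrtn, Artn, Gdnf, Lif, and only the steps from Cntf to Ntf3, from Ntf5 to Bdnf and from Gdnf to Lif were free of overlap.

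**Figure D1:**
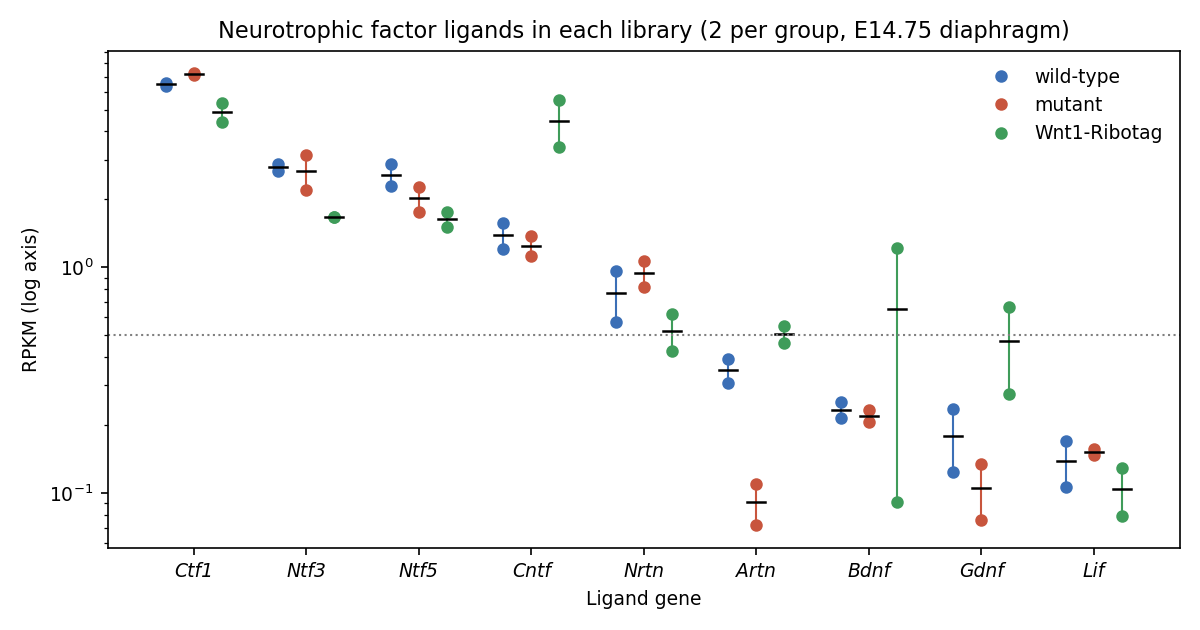
RPKM of the 9 ligands in each library on a log axis, with points for single libraries, a line joining the 2 libraries of a group, a bar at their mean, and a dotted line at 0.5 RPKM, the filter of the main test. Ctf1 sits highest in whole muscle, Artn is lower in both mutant libraries than in any other, and Cntf is higher in both Wnt1-Ribotag libraries.

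The 9 ligands together summed to between 14.0 and 15.4 RPKM in all 6 libraries, with 14.3 and 15.4 in wild-type, 14.0 and 15.3 in mutant and 15.2 and 14.6 in Wnt1-Ribotag libraries. Their makeup differed more than their sum. Ctf1 took between 42.4% and 51.8% of the sum in the 4 whole-muscle libraries but 28.9% and 36.4% in the Wnt1-Ribotag libraries. Cntf took between 8.0% and 10.1% of it in whole muscle and 36.5% and 23.3% in the Wnt1-Ribotag libraries. Artn took 2.14% and 2.55% in wild-type, 0.515% and 0.718% in mutant and 3.64% and 3.17% in Wnt1-Ribotag libraries.

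**Figure D2:**
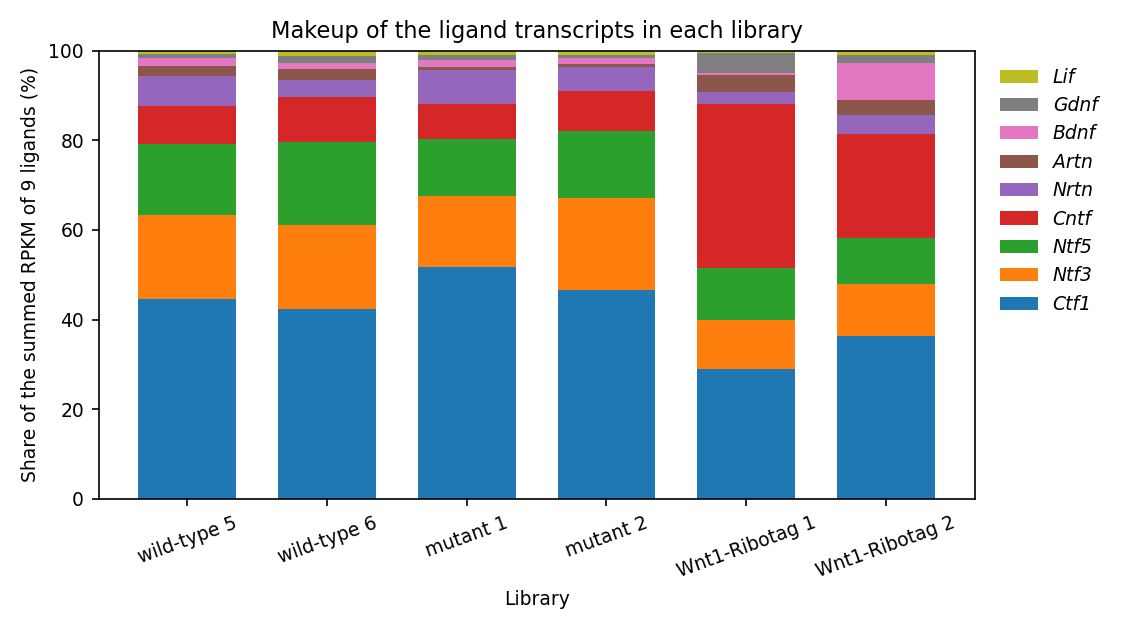
Share of each ligand in the summed RPKM of the 9 ligands, as a stacked bar per library on an axis from 0 to 100%. Ctf1, Ntf3 and Ntf5 fill most of each whole-muscle bar, and the Cntf segment is larger in the 2 Wnt1-Ribotag libraries, at 36.5% and 23.3%.

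Differences were tested with limma on log2(RPKM + 0.5) across all genes with a mean of at least 0.5 RPKM over the 4 libraries compared, and a gene was called at a Benjamini-Hochberg adjusted p under 0.05. Adding 0.5 makes these log2 fold changes smaller than the change in RPKM, most of all in low genes. Ntf3, Ntf5, Nrtn, Cntf and Ctf1 passed the filter in each comparison, and Bdnf, Gdnf, Artn and Lif did not. For those 4, ratios of RPKM, the exact two-sided permutation test, which cannot go below p = 0.33 with 2 libraries against 2, and a limma fit of all genes at a smaller pseudocount of 0.1 and no filter are given.

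None of the 5 ligands tested was called in mutant vs. wild-type muscle, where 0.171% of 14052 genes were called, and none of them had an unadjusted p under 0.05 in limma, against 12.0% of all genes. None was called in Wnt1-Ribotag vs. wild-type libraries either, against 0.00694% of 14418 genes, though 2 had an unadjusted p under 0.05 against 19.5% of all genes. None was called in Wnt1-Ribotag vs. mutant libraries, against 1.19% of 14325 genes, and 1 had an unadjusted p under 0.05 against 19.3%. No ligand thus passed the threshold in these fits, which had no block. Fits without Wnt1-Ribotag 1 or without Wnt1-Ribotag 2 take the spread from the other group alone, so only fold changes are given for them, further below. The fit without a filter called none of the 9 in any comparison, where 4, 1 and 603 of 23073 genes were called in the same order. In limma it had 1, 1 and 3 of the 9 at an unadjusted p under 0.05, against 9.7%, 17.6% and 18.1% of all genes. Between mutant and wild-type muscle, the median log2 fold change was -0.06 over the 5 ligands tested and -0.10 over all genes tested, and for all genes it was 0.004 after scaling the libraries by the median of their gene ratios.

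Among the neurotrophins, Ntf3 encodes neurotrophin-3, the ligand of TrkC, on chromosome 6 (126101412 to 126166910, minus strand). Positions here and below are those of GENCODE M21 on GRCm38, where all 9 ligands are annotated as protein-coding, since the files hold no coordinates. Its level was 2.68 and 2.88 RPKM in wild-type, 2.20 and 3.14 in mutant and 1.67 and 1.68 in Wnt1-Ribotag libraries. The mutant values spanned those of the wild-type, and both Wnt1-Ribotag values were lower than all 4 others. The mutant-to-wild-type log2 fold change was -0.06 (SE 0.18, 95% interval -0.49 to 0.36, adjusted p = 0.890 from limma), an interval from 0.711-fold to 1.29-fold, and its sign turned under median-ratio scaling (0.039) and quantile normalization (0.11). In Wnt1-Ribotag libraries it was -0.59 vs. wild-type (SE 0.22, adjusted p = 0.248) and -0.53 vs. mutant (SE 0.30, adjusted p = 0.377), with limma in both cases.

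Ntf5 encodes neurotrophin-4, a ligand of TrkB, on chromosome 7 (45413695 to 45417179, plus strand). Its level was 2.29 and 2.86 RPKM in wild-type, 1.77 and 2.27 in mutant and 1.75 and 1.51 in Wnt1-Ribotag libraries. The groups did not overlap, but the higher mutant and the lower wild-type value nearly met, with a ratio of 0.994. The log2 fold change of the mutant against wild-type muscle was -0.29 (SE 0.18, 95% interval -0.71 to 0.13, adjusted p = 0.494 from limma), an interval from 0.613-fold to 1.09-fold. With Wnt1-Ribotag libraries it was -0.52 vs. wild-type (SE 0.25, adjusted p = 0.319) and -0.24 vs. mutant (SE 0.30, adjusted p = 0.695), again from limma.

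Bdnf, brain-derived neurotrophic factor and the other TrkB ligand, lies on chromosome 2 (109674700 to 109727007, plus strand). It was at 0.253 and 0.214 RPKM in wild-type and 0.234 and 0.207 in mutant muscle, and at 0.0912 and 1.21 in Wnt1-Ribotag libraries. Wild-type and mutant values overlapped, with a ratio of means of 0.942 (exact permutation p = 0.67), and its log2 fold change in the fit without a filter was -0.06 (SE 0.20, 95% interval -0.56 to 0.44, adjusted p = 0.952 from limma). The 2 Wnt1-Ribotag libraries fell on either side of all whole-muscle values and differed from each other 13.3-fold. A list of 8 neuronal markers summed to 92.0 RPKM in Wnt1-Ribotag 1 and to 431 in Wnt1-Ribotag 2, the library high in Bdnf, against 13.2 and 59.2 in wild-type and 8.65 and 12.4 in mutant muscle, and of these markers Chat was below 0.1 RPKM in every library. The Schwann cell sum was also higher in Wnt1-Ribotag 2, at 367 against 147 RPKM. The part of either cell type in the Bdnf values was not tested. An antisense gene, Gm45346, overlaps 896 bases of the Bdnf exons (14.4% of them) and was not used here, and whether the counting used strand is not stated in the sources used here.

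Of the GDNF family, artemin (Artn), the preferred ligand of Gfra3 and known for its action on sensory and sympathetic neurons, differed most between mutant and wild-type muscle by ratio of means. Artn lies on chromosome 4 (117926162 to 117929763, minus strand). It was at 0.307 and 0.394 RPKM in wild-type, 0.0720 and 0.110 in mutant and 0.552 and 0.463 in Wnt1-Ribotag libraries. The groups did not overlap, with the mutant libraries lowest and the Wnt1-Ribotag libraries highest. Group means were 0.350 ± 0.0617, 0.0909 ± 0.0268 and 0.508 ± 0.0624 RPKM (SD, n = 2) in the same order. The mutant mean was 3.85-fold lower than the wild-type mean, and between 2.79-fold and 5.48-fold lower in the 4 pairs of single libraries. The exact permutation test gave p = 0.33, its smallest value, and the fit without a filter gave a log2 fold change of -1.24 (SE 0.21, 95% interval -1.76 to -0.71, unadjusted p = 0.0012, adjusted p = 0.197 from limma), which did not pass the threshold. Artn was the only one of the 9 ligands at least 2-fold lower in all 4 pairs. Among all genes above the floor 1.96% were at least 2-fold lower in all pairs, and 5.85% of those with a mean between 0.1 and 0.5 RPKM.

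The Artn values rested on few reads for this depth. Its RPKM, length and depth correspond to about 74 and 218 reads in wild-type, 23 and 61 in mutant and 163 and 191 in Wnt1-Ribotag libraries, with lengths of another annotation than the one used to make the files. In mutant muscle 16.1% and 21.4% of the genes above the floor were lower than Artn, against 23.8% and 28.0% in wild-type muscle. Against the mutant, the Wnt1-Ribotag mean was 5.58-fold higher and between 4.22-fold and 7.67-fold higher in single pairs (log2 fold change without a filter 1.67, SE 0.34, 95% interval 0.77 to 2.58, adjusted p = 0.107 from limma). Against the wild-type it was 1.45-fold higher, between 1.18-fold and 1.80-fold in single pairs, with a log2 fold change of 0.43 (SE 0.46 and adjusted p = 0.739 from limma without a filter).

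Markers of several cell types moved with Artn between mutant and wild-type muscle. Of the 9 Schwann cell markers tested in this comparison, 3 fell, Sox10 and Fabp7 among them, and all 9 had log2 fold changes below 0, with the sums given above. Of 9 liver markers, 3 fell and all 9 were below 0, and their sum was 516 and 160 RPKM in wild-type, 20.7 and 12.6 in mutant and 293 and 201 in Wnt1-Ribotag libraries. None of the 6 neuronal markers tested passed the threshold and all 6 were below 0. In the remaining lists none passed either. All 6 erythroid markers, 5 of 7 of connective tissue and 3 of 4 of macrophages were below 0. Of endothelial markers 2 of 4 were above 0, of mesothelial ones 3 of 4 and of skeletal muscle ones 9 of 12. Of all genes tested in this comparison, 0.171% were called, in either direction, and 67.0% were below 0. None of these markers was at the floor in both libraries of a group. The part of these cells in the Artn values was not tested, and in bulk RNA fewer cells of a type and less RNA per cell cannot be told apart.

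Gdnf, the founding member of the family and a potent survival factor of motor neurons, lies on chromosome 15 (7810846 to 7837575, plus strand). It was at 0.124 and 0.235 RPKM in wild-type, 0.134 and 0.0756 in mutant and 0.666 and 0.274 in Wnt1-Ribotag libraries. Wild-type and mutant values overlapped, while both Wnt1-Ribotag values were above all others and differed 2.43-fold from each other. The ratio of the mutant to the wild-type mean was 0.585, with single pairs from 0.322 to 1.08, an exact permutation p of 0.67, and a log2 fold change of -0.43 without a filter (SE 0.26, 95% interval -1.06 to 0.20, adjusted p = 0.593 from limma). Against the mutant, the Wnt1-Ribotag mean was 4.48-fold higher and between 2.04-fold and 8.81-fold in single pairs, with a log2 fold change of 1.40 (SE 0.49 and adjusted p = 0.251 from limma without a filter). Against the wild-type, it was 2.62-fold higher, between 1.17-fold and 5.38-fold, with a log2 fold change of 0.97 (SE 0.54 and adjusted p = 0.466 in the same fit).

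Neurturin (Nrtn), the preferred ligand of Gfra2, lies on chromosome 17 (56751325 to 56757530, minus strand). It was at 0.965 and 0.573 RPKM in wild-type, 1.06 and 0.820 in mutant and 0.425 and 0.620 in Wnt1-Ribotag libraries. All of the mutant values were above the Wnt1-Ribotag values, and the wild-type values overlapped both other groups. Between mutant and wild-type muscle the log2 fold change was 0.20 (SE 0.20, 95% interval -0.28 to 0.67, adjusted p = 0.663 from limma), an interval from 0.824-fold to 1.59-fold. In Wnt1-Ribotag libraries it was -0.30 vs. wild-type (SE 0.37, adjusted p = 0.679) and -0.50 vs. mutant (SE 0.38, adjusted p = 0.505), by the same test in limma.

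Of the cytokines, Ctf1, cardiotrophin-1, a factor made by embryonic muscle, lies on chromosome 7 (127712736 to 127718192, plus strand). It was at 6.37 and 6.55 RPKM in wild-type, 7.23 and 7.15 in mutant and 4.38 and 5.33 in Wnt1-Ribotag libraries. Replicates were close in whole muscle, the mutant values were the highest and the Wnt1-Ribotag values the lowest, without overlap. Ctf1 was higher than 58.6% to 65.2% of the genes above the floor in the 4 whole-muscle libraries. The mutant values were between 1.09-fold and 1.14-fold higher in the 4 pairs, a log2 fold change of 0.14 (SE 0.14, 95% interval -0.17 to 0.46, adjusted p = 0.630 from limma) and an interval from 0.887-fold to 1.38-fold. In Wnt1-Ribotag libraries it was -0.38 vs. wild-type (SE 0.19, adjusted p = 0.343) and -0.53 vs. mutant (SE 0.24, adjusted p = 0.283), tested with limma. Ctf2, on the opposite strand, overlaps 87 bases (4.77%) of the Ctf1 exons and was at 0.400 to 0.408 RPKM in whole muscle.

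Lif, leukaemia inhibitory factor, lies on chromosome 11 (4257557 to 4272514, plus strand). It was at 0.107 and 0.171 RPKM in wild-type, 0.147 and 0.157 in mutant and 0.0791 and 0.129 in Wnt1-Ribotag libraries. The wild-type values spanned those of the mutant, and both Wnt1-Ribotag values were below the mutant ones. The ratio of means was 1.10 in mutant vs. wild-type muscle (exact permutation p = 1), with a log2 fold change of 0.09 without a filter (SE 0.19, 95% interval -0.38 to 0.56, adjusted p = 0.952 from limma), while Wnt1-Ribotag means were 0.751 of the wild-type and 0.685 of the mutant mean.

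Cntf, ciliary neurotrophic factor, was the ligand that differed most between ribosome-bound and whole-muscle RNA among those tested. It lies on chromosome 19 (12763660 to 12765632, minus strand). Its level was 1.21 and 1.57 RPKM in wild-type, 1.12 and 1.37 in mutant and 5.53 and 3.41 in Wnt1-Ribotag libraries. Wild-type and mutant values overlapped, and both Wnt1-Ribotag values were at least 2.18-fold above each whole-muscle value. Between mutant and wild-type muscle its log2 fold change was -0.11 (SE 0.18, 95% interval -0.52 to 0.30, adjusted p = 0.788 from limma), an interval from 0.696-fold to 1.24-fold, and it was 0.079 under quantile normalization. The means of 1.39 ± 0.255 and 1.25 ± 0.181 RPKM (SD, n = 2) differed by less than the SD within either group. The Wnt1-Ribotag mean was 3.22-fold the wild-type mean, with single pairs from 2.18-fold to 4.58-fold, and its log2 fold change was 1.37 (SE 0.30, 95% interval 0.60 to 2.14, unadjusted p = 0.0059, adjusted p = 0.171 from limma). Against the mutant it was 3.59-fold, with single pairs from 2.48-fold to 4.95-fold and a log2 fold change of 1.48 (SE 0.32, 95% interval 0.71 to 2.25, unadjusted p = 0.0029, adjusted p = 0.0999 from limma). Neither passed the threshold in the fit of the 4 libraries compared without a block. With the spread estimated over all 6 libraries, or with a block for the replicate number, the comparison with the mutant did, at adjusted p = 0.0394 and 0.0449 from limma. Over all genes, 692 and 842 of 14325 were called under these settings, against 171 in the main fit. The replicate numbers of the block are shared by labels only.

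Reads at the Cntf locus may belong to another gene. Zfp91, on the same strand, overlaps 847 bases or 78.9% of the Cntf exons, and its level was far above that of Cntf, between 31.4 and 35.3 RPKM, and 51.0 and 48.1 RPKM in Wnt1-Ribotag libraries. Cntf stood at 3.85% and 4.57% of the Zfp91 level in wild-type, 3.16% and 4.22% in mutant and 10.8% and 7.09% in Wnt1-Ribotag libraries, so the ratio of both genes also differed between the preparations. Zfp91 had a log2 fold change of 0.59 in Wnt1-Ribotag vs. wild-type (SE 0.16, adjusted p = 0.188) and 0.54 vs. mutant (SE 0.21, adjusted p = 0.236) from limma. How the authors assigned shared reads is not given in the sources used here, and the Cntf values are uncertain to that extent. Only Cntf passed the filter over all 6 libraries and spanned more than 1 on the log2 scale over them, at 1.90. The log2 values of B230216N24Rik followed those of Cntf most closely over the 6 libraries (Pearson's r = 0.996), and 359 of 14320 genes had an r of at least 0.95, in libraries that fall into 2 preparations.

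**Figure D3:**
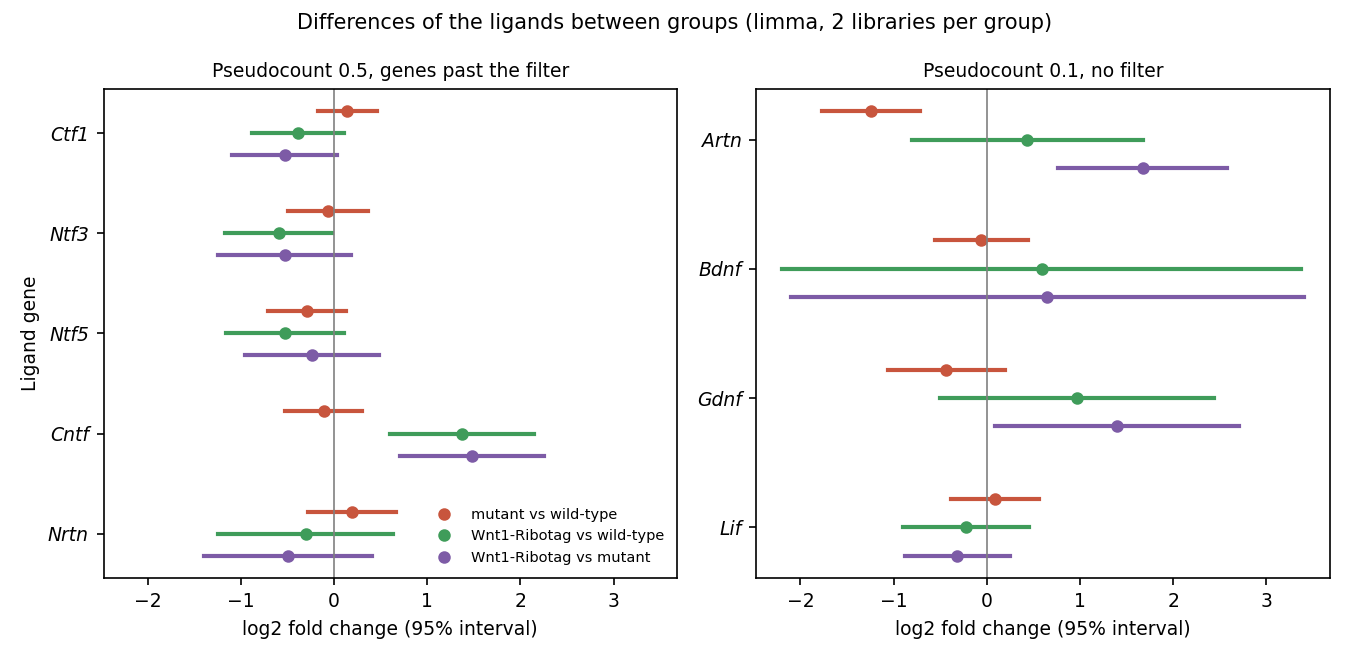
Log2 fold changes with 95% intervals from limma in the 3 comparisons, for the 5 ligands past the filter at a pseudocount of 0.5 (left) and for the other 4 at a pseudocount of 0.1 without a filter (right). The intervals of mutant vs. wild-type cross 0 for all but Artn (-1.76 to -0.71), and those of Cntf lie above 0 in both comparisons with Wnt1-Ribotag libraries. In Wnt1-Ribotag vs. mutant libraries those of Artn (0.77 to 2.58) and Gdnf (0.09 to 2.71) also lie above 0. That of Ntf3 lies below 0 in Wnt1-Ribotag vs. wild-type libraries (-1.17 to -0.018). No adjusted p from limma was under 0.05 in these fits.

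The stretches of 250 bases before the annotated start of Artn and Cntf are shown because Artn differed most by ratio of means between mutant and wild-type muscle and Cntf the largest log2 fold change of the ligands tested in the comparisons with Wnt1-Ribotag libraries. They come from RefSeq on GRCm38.p6, both on the minus strand, at chr4:117929764-117930013 and chr19:12765633-12765882, and capitals mark a match to ACAAAG or ACAATG, letters that SOX factors such as Sox10 are known to bind, on either strand.
Artn: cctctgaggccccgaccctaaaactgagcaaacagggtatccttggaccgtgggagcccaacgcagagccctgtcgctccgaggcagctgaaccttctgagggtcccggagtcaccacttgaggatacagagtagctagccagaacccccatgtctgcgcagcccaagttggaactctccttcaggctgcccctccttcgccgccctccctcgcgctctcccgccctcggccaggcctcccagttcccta
Cntf: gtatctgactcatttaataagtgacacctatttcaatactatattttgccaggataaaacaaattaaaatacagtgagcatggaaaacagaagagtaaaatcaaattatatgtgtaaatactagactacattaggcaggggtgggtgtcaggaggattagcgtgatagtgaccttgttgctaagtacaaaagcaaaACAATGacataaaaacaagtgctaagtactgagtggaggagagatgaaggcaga
The Artn stretch held neither motif, and the Cntf stretch held 1, which began 54 bases before the start. Of 32851 mouse promoters of this length, 25.2% held at least 1 of them, 16.5% ACAAAG and 10.7% ACAATG. A match is only a match of letters, and none in a stretch says nothing of sites elsewhere.

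Counted over the 9 ligands, the groups did not overlap for 3 in mutant vs. wild-type muscle, 1 higher (Ctf1) and 2 lower (Ntf5 and Artn), where 48.6% of all genes above the floor did not overlap, 12.6% higher and 35.9% lower. In Wnt1-Ribotag vs. wild-type libraries, 3 ligands were higher in all pairs (Gdnf, Artn and Cntf) and 3 lower (Ntf3, Ntf5 and Ctf1), against 22.8% and 30.8% of all genes. In Wnt1-Ribotag vs. mutant libraries the same 3 were higher and 5 were lower (Ntf3, Ntf5, Nrtn, Lif and Ctf1), against 29.3% and 24.5%. The last comparisons share the Wnt1-Ribotag libraries, and the first shares a group with each of them. In Wnt1-Ribotag vs. wild-type libraries 1 ligand, Cntf, was higher by 2-fold or more in each pair, against 3.2% of all genes and 8.58% of those between 0.1 and 0.5 RPKM, and 0 were lower by as much, against 3.01% and 7.08%. In Wnt1-Ribotag vs. mutant libraries 3 ligands, Gdnf, Artn and Cntf, were higher by 2-fold or more, against 5.75% and 15.1%, and 0 were lower, against 2.49% and 5.33%. While Artn was lower by 2-fold or more in mutant muscle, 0 ligands were higher by as much there, against 0.369% and 0.602%.

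**Figure D4:**
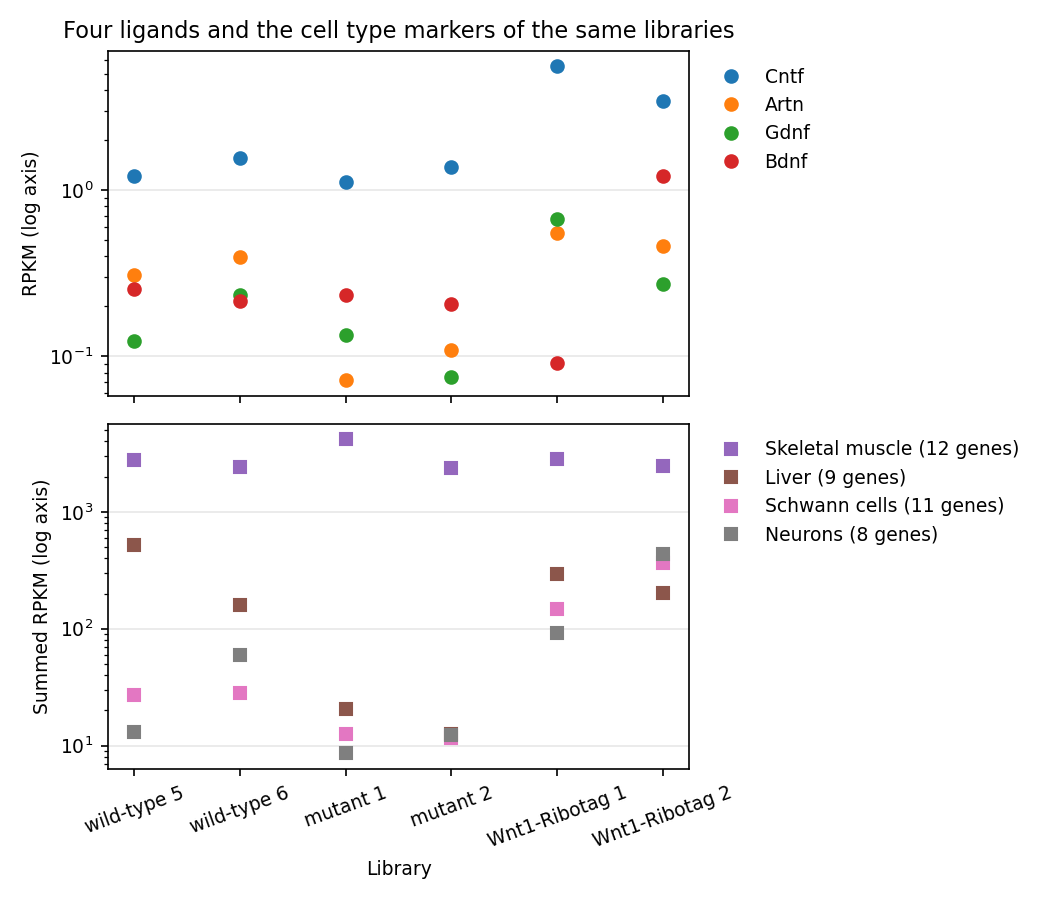
RPKM of Cntf, Artn, Gdnf and Bdnf in each library (top) above the summed RPKM of markers of skeletal muscle, liver, Schwann cells and neurons in the same libraries (bottom), both on log axes. Artn and the liver, Schwann cell and neuronal sums are lowest in the mutant libraries, where these sums overlie each other in mutant 2. Bdnf and the neuronal and Schwann cell sums are highest in Wnt1-Ribotag 2.

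The receptors of these ligands were tested as a list of 17 genes, all of which passed the filter. In mutant vs. wild-type muscle none passed the threshold, 7 had an unadjusted p under 0.05 in limma, all lower, against 12.0% of all genes in either direction, and 16 of 17 had log2 fold changes below 0, against 67.0% of all genes, with a median of -0.41 against -0.10. In Wnt1-Ribotag libraries 13 of 17 were above 0 vs. wild-type, with none past the threshold, 6 at an unadjusted p under 0.05 in limma against 19.5% of all genes, and a median of 0.68 against -0.05. Against the mutant 14 of 17 were above 0, with 10 at an unadjusted p under 0.05 in limma against 19.3% of all genes, and a median of 1.28 against 0.04. Of all genes, 54.4% were below 0 in the comparison with the wild-type and 47.0% in that with the mutant. The single receptor called was Gfra3, the co-receptor of artemin, in Wnt1-Ribotag vs. mutant libraries. Gfra3 was at 0.787 and 1.68 RPKM in wild-type, 0.0115 and 0.101 in mutant and 7.98 and 36.1 in Wnt1-Ribotag libraries. It was thus low where its ligand was low, and higher in each Wnt1-Ribotag library than in any other. Its log2 fold change was 4.99 in Wnt1-Ribotag vs. mutant libraries (SE 0.64, adjusted p = 0.0258 from limma), 3.40 vs. wild-type (SE 0.72, adjusted p = 0.170), and -1.59 for the mutant against the wild-type (SE 0.26, adjusted p = 0.0829). Markers of Schwann cells moved in the same directions, with 3 of 9 called lower in mutant vs. wild-type muscle and 8 of 11 called higher in Wnt1-Ribotag vs. mutant libraries. Those of neurons did as well, with 0 of 6 and 2 of 7 called in the same comparisons, and the part of either cell type in the Gfra3 values was not tested. Of all genes, 0.171% and 1.19% were called in these comparisons, in either direction.

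Further receptors of the ligands are named after their values were seen. Ret, the kinase of the GDNF family, was at 0.136 and 1.93 RPKM in wild-type, 0.0434 and 0.106 in mutant and 1.29 and 5.55 in Wnt1-Ribotag libraries, and a log2 fold change of -1.12 between mutant and wild-type muscle (SE 0.52 and adjusted p = 0.424 from limma) did not pass. Closest to the threshold in Wnt1-Ribotag vs. mutant libraries after Gfra3 were Gfra1, the partner of GDNF, with a log2 fold change of 1.48 (adjusted p = 0.0571 from limma), Ngfr with 1.98 (adjusted p = 0.0601) and Gfra2, the partner of neurturin, with 1.77 (adjusted p = 0.0655). Of the receptors of the cytokines, Cntfr was at 17.0 and 16.8 RPKM in wild-type, 11.1 and 10.3 in mutant and 14.0 and 20.8 in Wnt1-Ribotag libraries. The mutant values of Cntfr were below all others, with a log2 fold change of -0.63 vs. wild-type (SE 0.13, adjusted p = 0.137 from limma). The shared receptors Lifr and Il6st differed in direction, with log2 fold changes of 1.33 (SE 0.34, adjusted p = 0.131) and -0.19 (SE 0.29, adjusted p = 0.762) in Wnt1-Ribotag vs. mutant libraries from limma.

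Other ligands of the same families formed a list of 8 genes, of which 4 passed the filter and none was called in any comparison. Clcf1, a further ligand of Cntfr, was at 6.21 and 6.74 RPKM in wild-type and 5.32 and 5.01 in mutant muscle, with a log2 fold change of -0.30 (SE 0.14 and adjusted p = 0.430 from limma). The mutant values of Clcf1 were below those of the wild-type.

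Proneurotrophin processing was represented by 8 genes of proteases that cleave neurotrophin precursors or activate such proteases, of which 6 were tested and none called in any comparison. All 6 had log2 fold changes below 0 in mutant vs. wild-type muscle, against 67.0% of all genes, with a median of -0.35 against -0.10 and 2 at an unadjusted p under 0.05 in limma, where 12.0% of all genes were. Under median-ratio scaling, which was not run for these lists, 49.2% of all genes were below 0. The highest were Plat, tissue plasminogen activator, at 36.5 and 38.8 RPKM in wild-type and 32.9 and 27.4 in mutant muscle, Furin, at 8.46 and 8.77 against 7.84 and 4.48, and Pcsk6, at 8.98 and 8.29 against 7.06 and 6.06. Their adjusted p lay between 0.393 and 0.424 in limma. Plg, plasminogen, a product of liver, had a log2 fold change of -2.33 (adjusted p = 0.0924 from limma) beside the liver markers given above, and is named after its values were seen.

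Other secreted factors known to act on motor neurons formed a list of 14 genes, of which 12 were tested and none called in any comparison, with 11 of 12 below 0 in mutant vs. wild-type muscle, against 67.0% of all genes, and a median of -0.19 against -0.10. The most abundant were far above the 9 ligands. Igf2, insulin-like growth factor II, was at 1112 and 1078 RPKM in wild-type and 1147 and 797 in mutant muscle (adjusted p = 0.690 from limma). The heparin-binding factor pleiotrophin (Ptn) was at 362 and 403 RPKM in wild-type and 298 and 406 in mutant muscle (adjusted p = 0.754 from limma). Its relative midkine (Mdk) was at 229 and 219 RPKM in wild-type and 161 and 169 in mutant muscle, without overlap, and had a log2 fold change of -0.44 (SE 0.14 and adjusted p = 0.344 from limma).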

How the data were processed

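RNA of E14.75 diaphragm had been sequenced by the authors from oligo-dT-selected mRNA in 6 libraries. The deposited values are RPKM per Ensembl gene, with a deposited mark (neither count nor level) of 1 for genes at the floor. The submitters' processing notes name STAR and mm9. Versions, the annotation and the handling of strand and shared reads are not given in the sources used here. Of 23076 entries, 3 held no value. Identifiers were joined to GENCODE M21 on GRCm38, the build of all coordinates given, and 21583 matched and 1490 did not.

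Depth was computed from floors of 223 microRNA genes, taken as 1 read over the length with an offset of 2 bases, and 81.2% gave the same depth within 0.0001. Read counts were not recovered, so no counting interval is given. Each comparison was fitted with limma 3.58.1 (lmFit, eBayes with a trend) in R 4.3.3 on its 4 libraries, without a block, two-sided, and adjusted over all genes tested. The procedure was tested on simulated data with the spread of the mutant and wild-type libraries only, not that of the Wnt1-Ribotag libraries. Exact permutation tests used scipy 1.17.1, tables Python 3.11.15, numpy 2.4.6 and pandas 2.3.3, and plots matplotlib 3.10.9.

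Genes named were the 9 ligands, of each list the members called in any comparison or else the 3 with the highest mean RPKM, and for each ligand that passed the filter and spanned at least 1 on the log2 scale the 2 genes most like it. The ligands, lists and tests were chosen with earlier results of these data known. Results for some of the genes named by this rule are not reported here. The alternatives tried were a pseudocount of 0.1 or 1, dropping the filter, a filter at 1 RPKM, median-ratio scaling, quantile normalization, no trend, all 6 libraries, the replicate block and leaving out each library. A pseudocount of 0.1 without a filter was added after seeing the data.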

Additional observations from a re-analysis of the deposited data

How the results depend on the processing

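With all libraries kept, 41 of 44 alternative values of the 5 ligands past the filter in mutant vs. wild-type muscle, 44 of 44 in Wnt1-Ribotag vs. wild-type and 47 of 49 in Wnt1-Ribotag vs. mutant libraries kept their direction and their side of the threshold. The exceptions in mutant vs. wild-type muscle were log2 fold changes near 0. Under median-ratio scaling Ntf3 was at 0.039, and under quantile normalization Ntf3 was at 0.11 and Cntf at 0.079. When 1 library was left out, Ntf3 lay between -0.28 and 0.15 (the latter without mutant 1), Nrtn between -0.030 and 0.42 and Cntf between -0.25 and 0.029 (Nrtn below 0 and Cntf above 0 without wild-type 6). For the 4 ligands under the filter, the log2 ratio of means in mutant vs. wild-type muscle turned without wild-type 5 for Lif (0.13 to -0.17) and Bdnf (-0.087 to 0.039), and Gdnf moved from -0.77 to -0.16 at a pseudocount of 0.5 without a filter. Without Wnt1-Ribotag 2, that of Bdnf turned from 1.48 to -1.36 vs. wild-type and from 1.57 to -1.27 vs. mutant. With all libraries kept, none of the ligands tested was called in mutant vs. wild-type muscle under any alternative. Only the fits without a filter tested all 9 ligands, and the other alternatives tested 4 or 5. Without a filter, 0 of 23073 genes were called at a pseudocount of 0.5 and 4 at 0.1, so these fits say little about the ligands under the filter.

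In Wnt1-Ribotag vs. wild-type libraries between 0 and 3 ligands were called when 1 library was left out, 3 without Wnt1-Ribotag 1 (Bdnf, Ntf3 and Cntf) and 3 without Wnt1-Ribotag 2 (Ntf3, Cntf and Ctf1). In Wnt1-Ribotag vs. mutant libraries between 0 and 2 were called, Bdnf and Cntf without Wnt1-Ribotag 1 and 1, Cntf, without Wnt1-Ribotag 2. In such fits the lone library is assumed to vary like the remaining group, and over all genes 4482 and 5965 were called against wild-type, so these calls carry the spread of the whole-muscle libraries only. With all 6 libraries in the fit 1 ligand (Cntf) was called against the mutant, where 692 of 14325 genes were called. With the replicate block it was also 1 (Cntf), where 842 of 14325 genes were called. Over all genes, with all libraries kept, 24 calls in mutant vs. wild-type muscle ranged from 0 (no filter, or all 6 libraries) to 35 (filter at 1 RPKM). The 1 call in Wnt1-Ribotag vs. wild-type libraries ranged from 0 (no filter) to 138 (all 6 libraries). The 171 in Wnt1-Ribotag vs. mutant libraries ranged from 83 (quantile normalization) to 842 (replicate block). Median-ratio scaling turned 334 higher and 1357 lower genes at an unadjusted p under 0.05 in mutant vs. wild-type muscle into 845 and 709. The block's numbers are shared by labels only, and deviations of libraries with the same number had a correlation of 0.169 across genes. No paired analysis was possible for comparisons with wild-type because its libraries carry other numbers.

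The ratio of means for Artn in mutant vs. wild-type muscle was -1.95 on the log2 scale. It lay between -2.28 and -1.67 when 1 library was left out. Without a filter, the log2 fold change was -1.24 at a pseudocount of 0.1 and -0.52 at 0.5, with adjusted p of 0.197 and 0.326 in limma. The other alternatives kept a filter, which Artn did not pass. At 0.5 RPKM or more in place of above the floor, 5 of 9 ligands (Ctf1, Ntf3, Ntf5, Cntf and Nrtn) were present in both mutant libraries. The same 5 reached this level in both wild-type libraries, and no other ligand did. With 2 libraries a group, ligands under 0.5 RPKM are limited by depth as well as by spread.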
